A study of Mus musculus with 18 samples.

Results

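The 9 genes Mtor, Rptor, Tsc1, Tsc2, Pik3cb, Agap2, Eif4e, Eif4ebp2 and Rps6kb1, which act in PI3K-mTOR signalling and cap-dependent translation, were followed across the brain of mice carrying a regulatory knock-in at Fmr1 and of their wild-type littermates. The members were chosen by symbol as genes of a pathway that is altered in fragile X models, and were mapped to the Ensembl IDs of the gene count table through GENCODE M21. All 9 of the 9 listed symbols matched, out of 53468 genes in the table, and all 9 passed the filter on low counts in every comparison. Total RNA came from dissected forebrain, midbrain and hindbrain of 3 Fmr1CRE knock-in mice and 3 wild-type mice of a single litter at postnatal day 25, which gave 18 poly(A) libraries with 3 in each combination of region and genotype. Fmr1CRE mice carry a single-base change in a conserved non-coding element assigned to Fmr1, made by CRISPR/Cas9 in zygotes and bred on a C57BL/6 background. The coding sequence of Fmr1 is intact in them, so they are a model of altered regulation of the gene and not of its loss. The study established several lines with this change, and which line gave these mice is not stated in the sources used here. Each region was a whole piece of tissue, in which fewer cells of a type and less RNA per cell cannot be told apart.

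In this pathway, growth factor and glutamate receptors activate phosphoinositide 3-kinase (PI3K), whose lipid product recruits the kinase Akt. Akt relieves the brake that the TSC1-TSC2 complex places on the small GTPase Rheb, and Rheb then activates the kinase mTOR in its complex with Raptor. This complex phosphorylates the S6 kinases and the 4E-BPs, and phosphorylated 4E-BPs release the cap-binding protein eIF4E so that ribosomes can be loaded onto capped mRNA. The fragile X protein FMRP, encoded by Fmr1, represses the translation of many neuronal mRNAs, and the pathway is known in neurons for its part in synaptic plasticity and dendrite growth.

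The depth was between 22455512 and 28061185 counts per library. Fmr1 itself stood at 74.9, 78.8 and 73.7 CPM (counts scaled to a library of 1000000, with TMM factors) in Fmr1CRE forebrain against 80.5, 83.2 and 68.9 in wild-type forebrain, and its difference by genotype passed no test in any region (smallest adjusted p = 0.907, edgeR). Summed markers followed the region labels, with 524 to 891 CPM for 12 hindbrain genes in hindbrain, 95.8 to 269 in midbrain and 0.968 to 12.7 in forebrain, and 110.1 to 213 CPM for 10 midbrain genes in midbrain against at most 66.4 elsewhere. The 10 forebrain genes separated forebrain and midbrain less, at 1326 to 1691 CPM and 690 to 1258 CPM, with 296 to 385 in hindbrain. Over 14 genes whose levels across the 6 mice ran in parallel in midbrain and hindbrain, both forebrain libraries of replicate 3 went against their labels. The forebrain library labelled Fmr1CRE replicate 3 correlated at -0.30 with the other regions of its own mouse and at 0.88 with those of wild-type replicate 3, and the library labelled wild-type replicate 3 at -0.41 with its own and at 0.83 with those of Fmr1CRE replicate 3. The forebrain library of wild-type replicate 2 also matched another mouse slightly better, and correlated at 0.46 with its own mouse and at 0.53 with wild-type replicate 3. Libraries are used here as labelled, and the forebrain values of the 9 genes and of the pathway lists are also given without both libraries or mice of replicate 3. Forebrain comparisons within a mouse, such as counts of mice in which a region was higher, rest on those labels.

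Most of the 9 genes differed in level between regions, while none differed by genotype past the threshold (adjusted p under 0.05 over all genes tested, edgeR). Agap2 stood far apart, with a mean of 1300 CPM in forebrain, 675 in midbrain and 95.8 in hindbrain. Rptor, Mtor, Eif4ebp2 and Tsc2 had their lowest mean in hindbrain and their highest in midbrain, and spanned 1.64-fold to 2.07-fold between regions. Of these, only Rptor was called between forebrain and midbrain. Tsc1 spanned 1.28-fold, and Pik3cb, Eif4e and Rps6kb1 spanned 1.18-fold or less. Against hindbrain, 6 of the 9 were higher in forebrain and none was lower, where 26.3% of 19313 genes were called higher and 25.3% lower. Midbrain against hindbrain gave 7 higher and 1 lower, beside 25.2% and 23.9% of all genes, and forebrain against midbrain gave 1 higher and 1 lower, beside 8.79% and 9.42%. The median log2 difference of the 9 was 0.41 for forebrain against hindbrain, 0.71 for midbrain against hindbrain and -0.03 for forebrain against midbrain, while the medians of all genes were -0.01, -0.03 and 0.02. Scaling by total counts alone moved the median of all genes to -0.14 for forebrain against hindbrain and changed the split of its calls from 5088 higher and 4887 lower to 4104 and 6425. For forebrain against midbrain the split went from 1698 higher and 1820 lower to 1208 and 2728. Cell type markers moved with region too. The 12 oligodendrocyte markers, all measured and none at 0, summed to 14211 to 18140.4 CPM in forebrain, 18860 to 22269 in midbrain and 32490 to 45458 in hindbrain. The 10 markers of cerebellar granule neurons summed to 189 to 266, 502 to 945 and 993 to 1967 CPM in the same order, and 10 pan-neuronal markers to 4962 to 6420, 5700 to 7302 and 5448 to 6301, again with none at 0. The part of cell composition in the region differences was not tested.

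**Figure D1:**
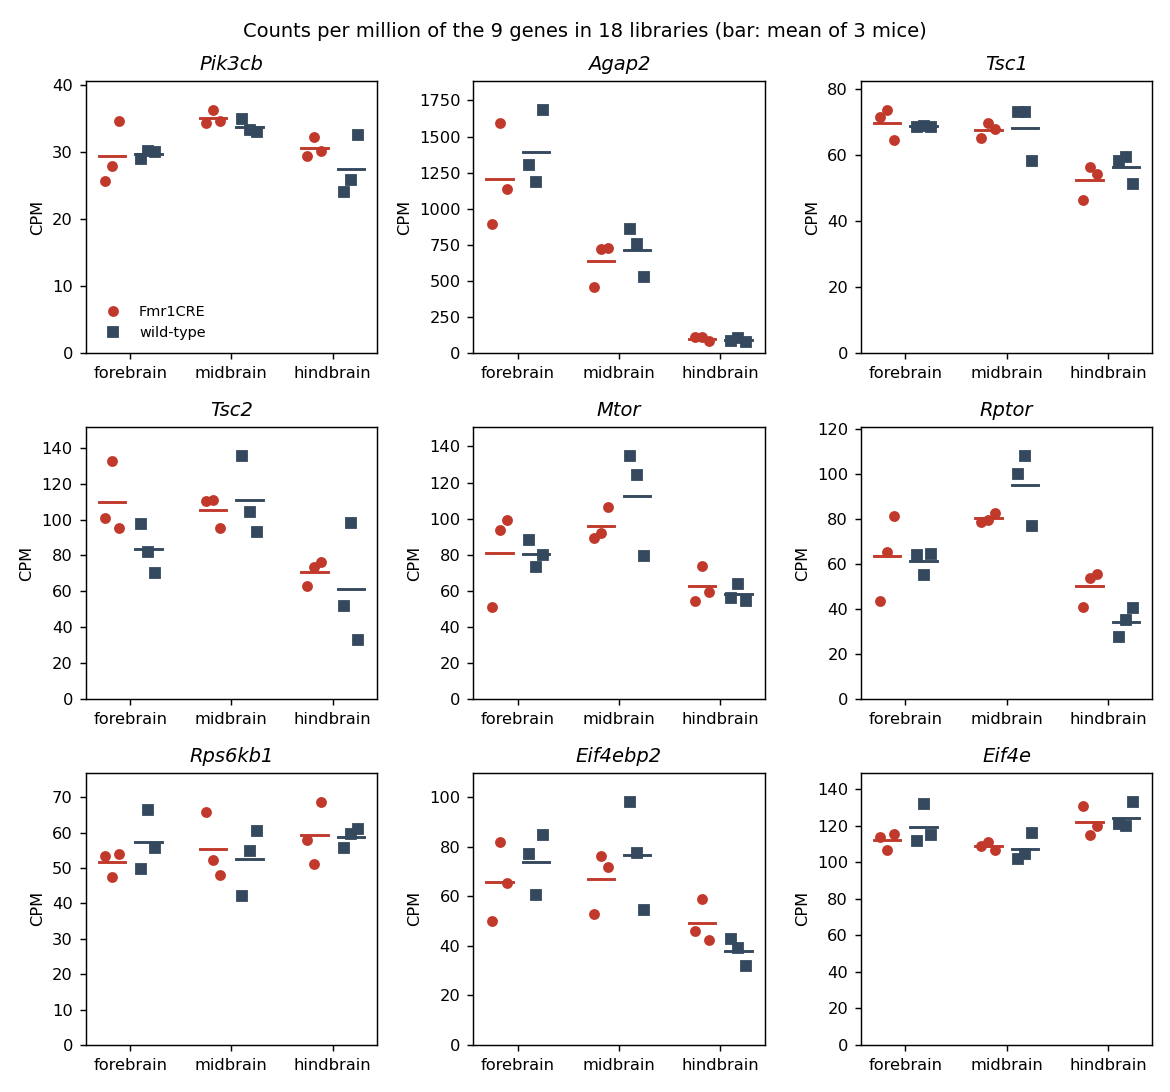
Level of each of the 9 genes in the 18 libraries, in CPM on axes that start at 0, by region, with Fmr1CRE and wild-type mice as separate points and the mean of each group as a line. Agap2 falls from 1300 CPM in forebrain to 95.8 in hindbrain, and the points of both genotypes mix within nearly every region.

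The PI3K end of the pathway was represented by Agap2 and Pik3cb. Agap2 (ENSMUSG00000025422, chr10:127075284-127093169, plus strand, GRCm38) encodes PIKE, a brain-enriched GTPase that binds and stimulates PI3K. Its libraries read 896, 1592 and 1140 CPM in Fmr1CRE forebrain and 1302, 1187 and 1682 in wild-type forebrain. The midbrain libraries read 457, 721 and 729 CPM in Fmr1CRE and 859, 756 and 530 in wild-type mice. In hindbrain the levels were 111, 109.7 and 84.7 CPM in Fmr1CRE and 84.8, 106.3 and 78.1 in wild-type mice. All 6 forebrain libraries lay above all 6 midbrain libraries, and these above all 6 hindbrain libraries. Forebrain exceeded hindbrain 13.4-fold (log2 difference 3.74, SE 0.18, adjusted p = 1.59e-09, edgeR with mouse as block) and midbrain 1.93-fold (0.95, SE 0.17, adjusted p = 0.00162), and midbrain exceeded hindbrain 6.94-fold (adjusted p = 3.82e-08). Each step held in 6 of 6 mice (exact sign-flip permutation p = 0.03125, the smallest that 6 mice can give). Without both mice of replicate 3 the forebrain exceeded hindbrain by 3.55 and midbrain by 0.83 on the log2 scale, with adjusted p of 1.395e-06 and 0.0209 (edgeR), while in the Fmr1CRE mice alone the forebrain to midbrain step of 0.91 was not called (adjusted p = 0.0748).

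Agap2 moved beside the forebrain markers. The 10 forebrain markers summed to 1326 to 1691 CPM in forebrain, 690 to 1258 in midbrain and 296 to 385 in hindbrain, with none of the 10 at 0 in any region. Only 5 of the 10 reached at least 1 CPM in all hindbrain libraries. Within midbrain, the Fmr1CRE replicate 1 library was lowest for both, at 457 CPM of Agap2 and 690 of the marker sum, and the wild-type replicate 1 library was highest for both, at 859 and 1258. Across the 18 libraries, deviations from the group means correlated at 0.78 between Agap2 and this sum, and at 0.76 between Agap2 and the summed astrocyte markers, with library and scaling shared. The part of dissection and of cell composition in the Agap2 levels was not tested. Over 19313 genes and 18 libraries, the non-members with the profile most like Agap2 on the log2 scale were Fbxl16 (r = 0.998), an F-box protein gene, Sipa1l1 (0.995), which encodes a postsynaptic GTPase-activating protein, and Dlg4 (0.994), which encodes the postsynaptic scaffold PSD-95.

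**Figure D2:**
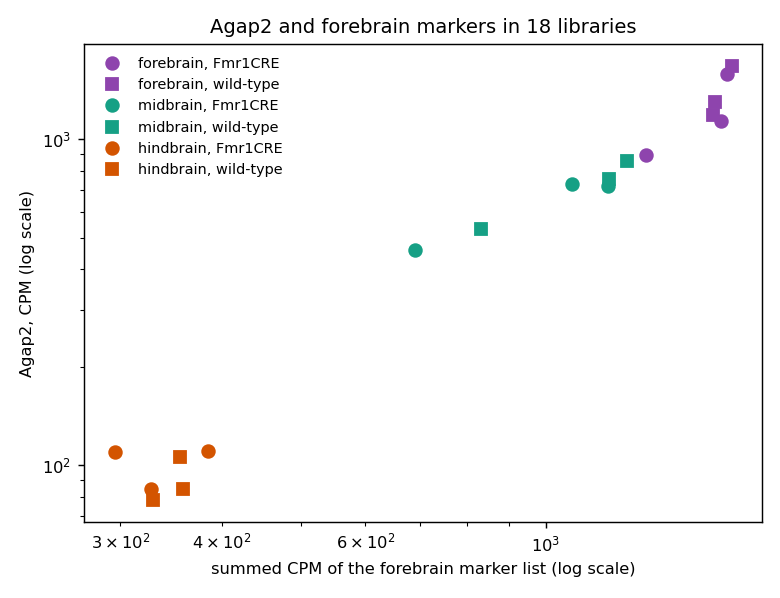
Agap2 level against the summed level of 10 forebrain marker genes in the 18 libraries, both in CPM on log axes, with colours for region and symbols for genotype. The hindbrain libraries sit at 78.1 to 111 CPM of Agap2 and 296 to 385 of the marker sum, and the midbrain libraries lie between them and forebrain.

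The bases before a start of Agap2, Eif4ebp2, Mtor and Rptor are shown because these genes differed between regions and their windows touched no annotated exon. They are the 250 bases before the start in RefSeq's table for GRCm38.p6, 5′ to 3′ on the strand of the gene, with GC boxes (GGGCGG, searched on both strands) in capitals. The windows lie at chr10:127078657-127078906 on the plus strand for Agap2, chr10:61452670-61452919 on the minus strand for Eif4ebp2, chr4:148448332-148448581 on the plus strand for Mtor and chr11:119602655-119602904 on the plus strand for Rptor. The Agap2 window lies inside the annotated gene, before the start shared by Agap2-201 and Agap2-202. Within 50 bases of the Rptor start, GENCODE places only Rptor-203, a transcript with a retained intron that took 1.46% of pooled Rptor reads. Rptor-211 and Rptor-201, which took 49.3% and 45.7%, do not start within 50 bases of it.
Agap2: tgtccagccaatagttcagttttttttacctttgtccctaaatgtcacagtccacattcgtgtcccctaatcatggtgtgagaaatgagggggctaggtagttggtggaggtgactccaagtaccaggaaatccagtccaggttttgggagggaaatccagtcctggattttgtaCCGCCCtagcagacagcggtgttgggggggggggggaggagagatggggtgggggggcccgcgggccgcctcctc
Eif4ebp2: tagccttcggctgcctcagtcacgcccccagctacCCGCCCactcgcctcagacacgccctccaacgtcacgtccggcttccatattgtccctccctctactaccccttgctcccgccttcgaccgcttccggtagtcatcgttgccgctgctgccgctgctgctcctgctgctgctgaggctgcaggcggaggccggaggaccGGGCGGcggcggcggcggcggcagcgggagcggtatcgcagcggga
Mtor: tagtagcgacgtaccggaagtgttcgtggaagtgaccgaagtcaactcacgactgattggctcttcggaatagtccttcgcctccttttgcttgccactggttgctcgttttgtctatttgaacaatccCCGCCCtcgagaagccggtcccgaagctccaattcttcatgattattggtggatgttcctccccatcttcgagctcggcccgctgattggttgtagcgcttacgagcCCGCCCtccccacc
Rptor: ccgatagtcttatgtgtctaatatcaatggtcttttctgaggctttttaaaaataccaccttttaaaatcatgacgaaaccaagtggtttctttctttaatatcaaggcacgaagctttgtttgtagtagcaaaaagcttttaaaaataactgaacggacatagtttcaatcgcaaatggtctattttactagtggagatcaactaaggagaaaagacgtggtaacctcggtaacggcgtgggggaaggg
The Agap2 window is 56% G or C with 1 GC box, the Eif4ebp2 window 70% with 2 the Mtor window 54.4% with 2 and the Rptor window 37.6% with 0, where 32.7% of all 32851 such windows hold at least 1. The CCAAT box (CCAAT, both strands) occurs 4 times in the Mtor window and once in that of Agap2, but not in those of Eif4ebp2 and Rptor, where 33.8% of all windows hold it. The TATA box (TATAAA, 12.4% of all windows), the E-box (CACGTG, 6.02%) and the cAMP response element (TGACGTCA, 1.55%) occur in none of the 4, and the ETS site (CCGGAA, 12.03%) occurs once in Mtor, once in Eif4ebp2 and not in Agap2 or Rptor. The motifs were chosen after matches had been seen, and a match describes letters and not a bound site.

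Pik3cb (ENSMUSG00000032462, chr9:99036654-99140621, minus strand) encodes the catalytic PI3K subunit p110β, which has been studied in fragile X models. It ran from 25.6 to 34.6 CPM in forebrain (median 29.5), 33.0 to 36.2 in midbrain (median 34.5) and 24.0 to 32.5 in hindbrain (median 29.8). Midbrain lay above hindbrain without overlap, 1.19-fold (log2 difference 0.25, SE 0.08, adjusted p = 0.0242, edgeR), in 6 of 6 mice. This call did not hold without wild-type replicate 1 (adjusted p = 0.102) or wild-type replicate 2 (0.0529), nor with scaling by total counts alone (0.0537), in wild-type mice alone (0.0945) or in Fmr1CRE mice alone (0.339). The forebrain was below midbrain by 0.22 (adjusted p = 0.0817), a difference called by DESeq2 (adjusted p = 0.0493) and with scaling by total counts alone (0.0142). It was -0.30 without both mice of replicate 3 (adjusted p = 0.101, edgeR), where the forebrain differed from hindbrain by 0.020.

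Both mTORC1 genes had their highest mean in midbrain. Mtor (ENSMUSG00000028991, chr4:148448611-148557683, plus strand) encodes the kinase itself. Its levels ran from 51.1 to 99.05 CPM in forebrain (median 83.9), 79.0 to 134.7 in midbrain (median 99.3) and 54.2 to 73.8 in hindbrain (median 57.6). Midbrain and hindbrain did not overlap, whereas the forebrain range reached into both. Midbrain exceeded hindbrain 1.72-fold (log2 difference 0.78, SE 0.13, adjusted p = 0.000257, edgeR). The forebrain excess over hindbrain was smaller (0.41, SE 0.13, adjusted p = 0.0179, 5 of 6 mice) and was not called without Fmr1CRE replicate 3 (0.34, adjusted p = 0.0788), without wild-type replicate 3 (0.37, 0.0511), without both mice of replicate 3 (0.28, 0.201), with scaling by total counts alone (0.27, 0.0548), in wild-type mice alone (0.47, 0.0546) or in Fmr1CRE mice alone (0.31, 0.228). The forebrain stood 0.37 below midbrain on the log2 scale without passing the test (adjusted p = 0.0610, edgeR). The same difference was called by DESeq2 (adjusted p = 0.0305), with scaling by total counts alone (-0.44, 0.0144) and with at least 10 counts in every library (0.0469), and was -0.55 without both mice of replicate 3 (0.0575).

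Rptor (ENSMUSG00000025583, chr11:119602905-119899576, plus strand) encodes Raptor, the subunit that brings substrates to mTORC1. Its levels ran from 43.4 to 81.5 CPM in forebrain (median 64.2), 76.95 to 108 in midbrain (median 81.2) and 27.4 to 55.8 in hindbrain (median 40.55). Every midbrain library lay above every hindbrain library, with a difference of 2.11-fold (log2 1.08, SE 0.16, adjusted p = 0.0001145, edgeR). The forebrain was 1.47-fold above hindbrain in 6 of 6 mice (adjusted p = 0.00994) and 1.43-fold below midbrain in 6 of 6 mice (adjusted p = 0.0390). The last call was lost on leaving out any mouse but Fmr1CRE replicate 3, with adjusted p of 0.111 without Fmr1CRE replicate 1, 0.0567 without Fmr1CRE replicate 2, 0.0543 without wild-type replicate 1, 0.127 without wild-type replicate 2 and 0.0606 without wild-type replicate 3 (edgeR). Without both mice of replicate 3 neither forebrain call held, at 0.53 against hindbrain (adjusted p = 0.0643, edgeR) and -0.70 against midbrain (adjusted p = 0.0550). In Fmr1CRE mice alone the forebrain stood 0.28 above hindbrain (adjusted p = 0.204, edgeR), and in wild-type mice alone 0.84 (adjusted p = 0.00899). The difference from midbrain was called in neither (adjusted p = 0.202 and 0.0908), and midbrain exceeded hindbrain by 0.67 in Fmr1CRE mice alone (adjusted p = 0.0210).

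The profiles most like that of Rptor were those of Mapre3 (r = 0.960), a microtubule end-binding protein gene, Snap91 (0.957), a synaptic vesicle endocytosis gene, and Tmppe (0.954). Those most like Mtor were Srgap1 (0.978), a Slit-Robo GTPase-activating protein gene, Atp9a (0.959), a phospholipid flippase gene, and Alk (0.959), a receptor tyrosine kinase gene.

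The TSC genes, which encode the brake on Rheb, were both lowest in hindbrain. Tsc1 (ENSMUSG00000026812, chr2:28641228-28691167, plus strand) encodes hamartin, which stabilises the complex, and had 64.5 to 73.5 CPM in forebrain, 58.3 to 73.1 in midbrain and 46.4 to 59.4 in hindbrain. The forebrain did not overlap hindbrain, and exceeded it 1.28-fold (log2 difference 0.35, SE 0.07, adjusted p = 0.000546, edgeR), whereas its difference from midbrain was 0.03 (95% interval -0.11 to 0.18). Midbrain exceeded hindbrain by 0.32 (SE 0.07, adjusted p = 0.00137). Without both mice of replicate 3 the forebrain differed by 0.36 from hindbrain (adjusted p = 0.0103, edgeR) and by 0.0062 from midbrain. Scaling by total counts alone lowered the forebrain excess over hindbrain to 0.22 (adjusted p = 0.0219), and wild-type mice alone did not call it (0.0593). With 3 mice, midbrain against hindbrain was called in neither genotype alone (adjusted p = 0.0790 in wild-type and 0.0521 in Fmr1CRE mice). Tsc2 (ENSMUSG00000002496, chr17:24595816-24632630, minus strand) encodes tuberin, the GTPase-activating subunit. It was far more variable, with 70.35 to 132.5 CPM in forebrain, 93.2 to 135.4 in midbrain and 32.95 to 98.3 in hindbrain, so that all regions overlapped. Tsc2 was higher than in hindbrain by 0.57 in forebrain (SE 0.17, adjusted p = 0.0121, edgeR, 5 of 6 mice) and by 0.76 in midbrain (SE 0.17, adjusted p = 0.00236, 6 of 6 mice). The forebrain call was lost without both mice of replicate 3 (0.53, adjusted p = 0.0676, edgeR), with scaling by total counts alone (0.44, 0.0502) and in wild-type mice alone (0.53, 0.161). Forebrain against midbrain was -0.19 (adjusted p = 0.486, edgeR), and -0.17 without both mice of replicate 3. Exons of Tsc2 share 693 bases, 7.20% of its exon length, with Pkd1 on the opposite strand, and whether the counting used strand is not stated in the sources used here.

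Among the outputs of mTORC1, the S6 kinase gene and the cap-binding gene varied little and the 4E-BP gene varied more. Rps6kb1 (ENSMUSG00000020516, chr11:86498871-86544805, minus strand) encodes S6 kinase 1, with 47.5 to 66.4 CPM in forebrain, 42.2 to 65.7 in midbrain and 51.2 to 68.7 in hindbrain. It was called in no region comparison, and its fold differences had 95% intervals of 0.800 to 1.06 for forebrain against hindbrain, 0.879 to 1.16 for forebrain against midbrain and 0.792 to 1.05 for midbrain against hindbrain. With scaling by total counts alone, the forebrain stood 0.25 below hindbrain with an adjusted p of 0.0490 (edgeR). The forebrain differed by -0.057 from hindbrain and by 0.011 from midbrain without both mice of replicate 3.

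Eif4e (ENSMUSG00000028156, chr3:138526179-138559696, plus strand) encodes the cap-binding protein and was the only member with a call toward hindbrain. It had 106.8 to 132.1 CPM in forebrain, 101.6 to 116.1 in midbrain and 115 to 133.1 in hindbrain. The midbrain was below hindbrain in 6 of 6 mice, 1.14-fold (log2 difference -0.19, SE 0.06, adjusted p = 0.0235, edgeR), though the ranges met. This call was lost without Fmr1CRE replicate 1 (adjusted p = 0.0638), Fmr1CRE replicate 3 (0.0611), wild-type replicate 1 (0.0786) or wild-type replicate 3 (0.0522), without both mice of replicate 3 (0.127), in wild-type (0.160) or Fmr1CRE mice alone (0.162), and with no filter on low counts (-0.15, 0.209). With scaling by total counts alone the forebrain too was called below hindbrain, by 0.22 (adjusted p = 0.0134), where the difference was -0.09 otherwise and -0.068 without both mice of replicate 3.

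Eif4ebp2 (ENSMUSG00000020091, chr10:61428491-61452661, minus strand) encodes 4E-BP2, the main 4E-BP of the brain. It ran from 50.1 to 84.6 CPM in forebrain (median 71.1), 52.8 to 98.05 in midbrain (median 73.9) and 31.8 to 59.05 in hindbrain (median 42.4). The ranges met, and within every mouse both anterior regions lay above hindbrain. The difference was 1.61-fold for forebrain (log2 0.68, SE 0.15, adjusted p = 0.00161, edgeR) and 1.64-fold for midbrain (0.71, SE 0.15, adjusted p = 0.001415), and -0.03 (95% interval -0.34 to 0.29) between forebrain and midbrain. Without both mice of replicate 3 the forebrain difference was 0.50 from hindbrain (adjusted p = 0.0303, edgeR) and -0.18 from midbrain. Neither excess over hindbrain was called in Fmr1CRE mice alone, at 0.37 for forebrain (adjusted p = 0.0645, edgeR) and 0.41 for midbrain (0.0568), and wild-type mice alone gave 0.98 (adjusted p = 0.00605) and 1.001 (adjusted p = 0.007). Its paralog Eif4ebp1 was scarce, at 2.91 CPM in forebrain, 2.07 in midbrain and 1.25 in hindbrain on average, and was higher in forebrain than in hindbrain by 1.23 (adjusted p = 3.023e-05, edgeR).

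**Figure D3:**
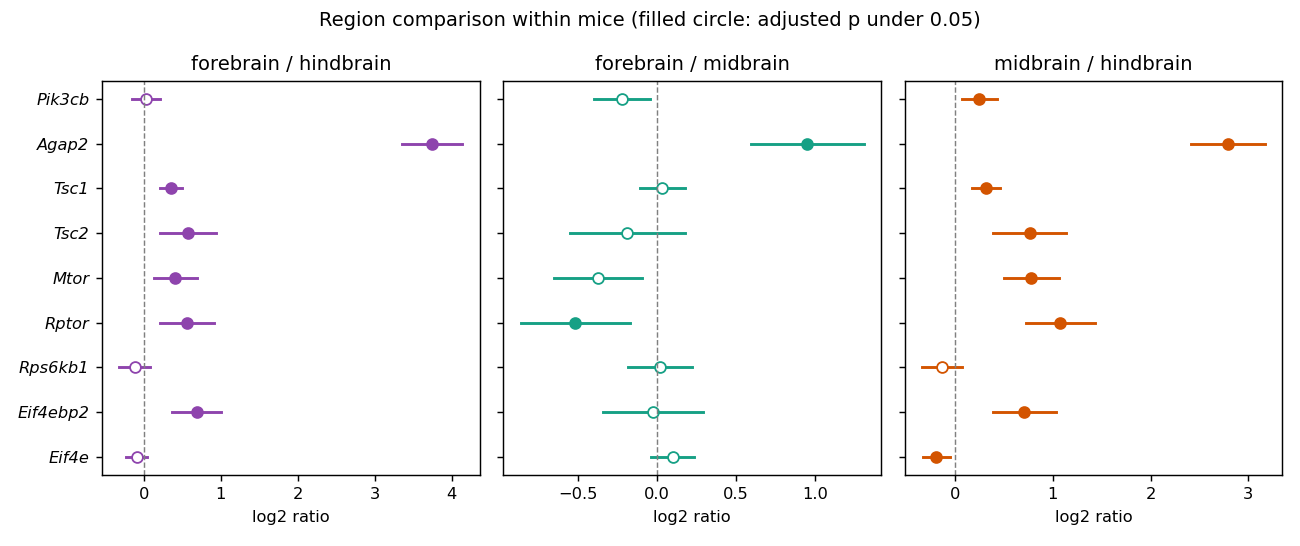
Log2 difference between regions for each of the 9 genes with its 95% interval (edgeR, mouse as block, 6 mice), with filled points for adjusted p under 0.05 and an axis of its own for each comparison. Agap2 reaches 3.74 for forebrain against hindbrain, and the called differences of the other genes lie between -0.52 and 1.08.

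Levels were compared between genes only per length, in TPM (counts divided by length and scaled to a sum of 1000000) computed from the gene counts. With effective lengths weighted by transcript level, the forebrain means were 156 TPM for Eif4e, 61.7 for Agap2, 41.4 for Tsc2, 8.45 for Rps6kb1, 7.64 for Mtor, 5.31 for Rptor, 4.51 for Eif4ebp2, 3.90 for Tsc1 and 2.51 for Pik3cb. The order of the upper ranks depended on the length. The level-weighted length of Eif4e was only 290 bases. Its transcript Eif4e-203, of 292 bases, took 66.6% of the level from 10.3% of the reads. The length of Tsc2 weighted this way was 917 bases, and that of Agap2 was 8275, above its longest transcript of 5633. Weighted by reads instead, a choice made after the values were seen, the forebrain level was 67.7 TPM for Agap2, 21.9 for Eif4e and 9.19 for Tsc2, and with the longest transcript it was 448 for Agap2, 45.1 for Eif4e and 29.98 for Tsc2. Pik3cb was lowest of the 9 in forebrain and midbrain under all 3 lengths. In hindbrain Agap2 ranked between 2 and 5 of 9 under these lengths, and Eif4e ranked 1 under all 3.

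The reads of 18 deposited transcript tables, pooled because most tables are named for another library than their record, showed which transcripts carried the members. Agap2-201 took 96.9% of Agap2 reads, Mtor-202 95.7%, Rps6kb1-207 89.9% and Eif4ebp2-201 100% of the estimated reads of their genes. For Pik3cb, 78.9% of reads were assigned to Pik3cb-203, which GENCODE annotates as a target of nonsense-mediated decay, and 21.1% to the coding Pik3cb-201. The share of Pik3cb-203 ran from 70.3% to 88.8% over the 18 tables. Rptor was split between Rptor-211, also annotated for decay, at 49.3% and the coding Rptor-201 at 45.7%. Tsc1 reads fell mainly on Tsc1-204 (53.4%) and Tsc1-202 (34.4%), and Tsc2 reads on Tsc2-217 (30.3%), Tsc2-205 (22.1%) and Tsc2-221 (15.2%). Eif4e-201 took 56.5% of Eif4e reads, and a fragment of 292 bases with a retained intron, Eif4e-203, took 10.3%. Splits between transcripts that share most of their sequence are estimates from single-end reads of 50 bases, and the gene counts sum over them.

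By genotype, none of the 9 genes was called in any region, where 0% of 18467 genes were called in forebrain, 0.00543% of 18400 in midbrain and 0% of 19112 in hindbrain. In the regions summed per mouse, none of the 9 was called beside 0.00451% of 22191 genes, and for the difference of the genotype effect between regions none was called beside 0% of 20363. Over all genes, the unadjusted edgeR p was under 0.05 for 1002 genes in forebrain, 1135 in midbrain, 981 in hindbrain, 820 in the summed regions and 1454 for the difference between regions, and DESeq2 called 31, 62, 60, 29 and 77. The smallest adjusted p of a member was 0.807 in forebrain, 0.814 in midbrain, 0.875 in hindbrain and 0.998 in the summed regions (edgeR). The median log2 difference of the 9, Fmr1CRE over wild-type, was 0.15 in hindbrain, -0.07 in midbrain and 0.01 in forebrain, beside -0.01, 0.00 and 0.00 over all genes. Only Rptor in hindbrain had genotypes that did not overlap, 1 of 27 pairs of groups, where 10.3%, 11.2% and 10.9% of all genes were without overlap in forebrain, midbrain and hindbrain. The 95% intervals left room for sizeable differences in either direction, from 0.620-fold to 1.77-fold over the 9 genes in forebrain, 0.617-fold to 1.39-fold in midbrain and 0.665-fold to 2.005-fold in hindbrain.

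**Figure D4:**
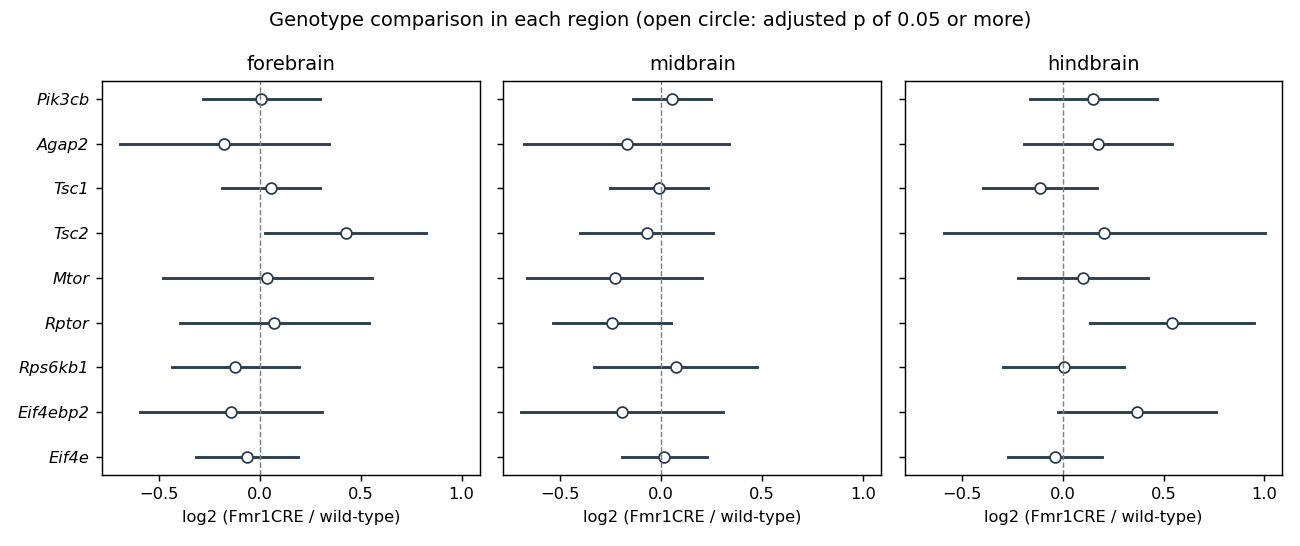
Log2 difference of Fmr1CRE over wild-type mice for each of the 9 genes in forebrain, midbrain and hindbrain with its 95% interval (edgeR, 3 mice against 3). The intervals of all genes include 0 apart from Tsc2 in forebrain (0.03 to 0.82) and Rptor in hindbrain (0.14 to 0.95), neither of which passed the adjusted threshold.

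Rptor showed the largest difference of a member by genotype. In hindbrain it stood at 40.7, 54.0 and 55.8 CPM in Fmr1CRE mice and 27.4, 35.3 and 40.4 in wild-type mice, so that the lowest Fmr1CRE library was just above the highest wild-type library. The log2 difference was 0.54 (SE 0.18, unadjusted p = 0.0152, adjusted p = 0.875, edgeR), with an exact permutation p of 0.1, the smallest that 3 mice against 3 allow. It ranged from 0.41 to 0.67 when any 1 library was left out and was 0.58 without both libraries of replicate 3, with an adjusted p of at least 0.309 in all of these fits. In midbrain the same gene stood at 78.5, 79.5 and 82.8 CPM in Fmr1CRE and at 99.95, 108 and 76.95 in wild-type mice, a log2 difference of -0.24 (adjusted p = 0.814, edgeR). In forebrain the difference was 0.07 (adjusted p = 0.947), and -0.09 without both libraries of replicate 3. The difference of the genotype effect between the regions had an unadjusted p of 0.0336 and an adjusted p of 0.680 (edgeR). Without both mice of replicate 3 its adjusted p was 0.106 (edgeR), so that a region-specific effect on Rptor was not shown.

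Ribosomal protein genes ran opposite to Rptor, and several cell type marker lists ran with it. The 77 ribosomal protein genes above 20 CPM summed to 12529, 10690.3 and 11188 CPM in Fmr1CRE hindbrain and to 14259, 13646 and 12270.4 in wild-type hindbrain, and their sum was highest in the library with the least Rptor. Over 18 libraries, deviations from the group means correlated at -0.83 between Rptor and this sum and at -0.71 between Mtor and it, with library and scaling shared. Summed pan-neuronal markers correlated at 0.78 with Rptor and at 0.79 with Mtor. With Rptor, microglial markers correlated at 0.69, astrocyte markers at 0.63 and oligodendrocyte markers at 0.53. Blood markers correlated with it at -0.53, choroid plexus markers at -0.51 and cerebellar granule neuron markers at -0.15. The part of library composition and of cell composition in the Rptor difference was not tested.

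Tsc2 in forebrain was the other member with an unadjusted p under 0.05. Its libraries read 101, 132.5 and 95.2 CPM in Fmr1CRE and 97.6, 82.0 and 70.35 in wild-type forebrain, so the groups overlapped through wild-type replicate 1. The log2 difference was 0.43 (SE 0.17, unadjusted p = 0.0396, adjusted p = 0.807, edgeR; exact permutation p = 0.2). Without Fmr1CRE replicate 2 it fell to 0.27 (SE 0.16, adjusted p = 0.896), and without both libraries of replicate 3 it was 0.42 (adjusted p = 0.374). Malat1, a nuclear RNA, was at 2337, 1826 and 813 CPM in the same Fmr1CRE libraries and at 1001, 884 and 911 in the wild-type libraries. Its part in the Tsc2 difference was not tested. Tsc2 differed by -0.07 in midbrain and by 0.21 in hindbrain, where wild-type replicates ranged from 32.95 to 98.3 CPM and gave an interval of -0.59 to 1.004.

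The translation end showed no called difference. Eif4ebp2 stood at 46.0, 59.05 and 42.3 CPM in Fmr1CRE hindbrain against 42.55, 39.2 and 31.8 in wild-type hindbrain, 1.29-fold higher with overlap by a narrow margin (log2 0.37, SE 0.17, adjusted p = 0.875, edgeR; exact permutation p = 0.2). Its differences were -0.14 in forebrain (-0.013 without both libraries of replicate 3) and -0.19 in midbrain, and the test of the difference between regions gave an unadjusted p of 0.0690 and an adjusted p of 0.680 (edgeR). Without both mice of replicate 3 the adjusted p of that test was 0.0789 (edgeR). Eif4e differed by at most 0.06 in either direction in any region, with 95% intervals that kept its fold between 0.803 and 1.17. Rps6kb1 differed most in forebrain, at -0.12, with 0.07 in midbrain and 0.0066 in hindbrain. Without both libraries of replicate 3 the forebrain differences were -0.16 for Rps6kb1 and -0.097 for Eif4e. Among the paralogs, Eif4ebp3 read 1.28 higher in Fmr1CRE forebrain at an unadjusted p of 0.0112 and an adjusted p of 0.807 (edgeR), from 21 to 106 counts per library, and 1.62 without both libraries of replicate 3 (adjusted p = 0.288). Rps6kb2 differed there by 0.65 (adjusted p = 0.807, edgeR), and by 1.32 without both libraries of replicate 3 (adjusted p = 0.168). Other paralogs went the other way, with Agap1 at -0.45 and Pik3cg at -0.87 (adjusted p = 0.807 for both, edgeR).

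None of the upstream members was called either. The Mtor difference was -0.23 in midbrain, with 0.10 in hindbrain and 0.04 in forebrain. Its Fmr1CRE forebrain libraries spread from 51.1 to 99.05 CPM, wider than the wild-type range of 73.3 to 88.1. Agap2 differed by -0.17, -0.17 and 0.17 in forebrain, midbrain and hindbrain, with standard errors of 0.22, 0.22 and 0.16, and by 0.04 in forebrain without both libraries of replicate 3. Pik3cb differed by 0.0085, 0.05 and 0.15 in that order, and Tsc1 by 0.05, -0.01 and -0.11. Without both libraries of replicate 3 the forebrain values were -0.12 for Mtor, -0.10 for Pik3cb and 0.12 for Tsc1.

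Within groups, some members moved together and others in opposite directions. Over the deviations of the 18 libraries from their group means, the 36 pairs of members had correlations of -0.83 to 0.89 with a median of 0.12, of which 8 were over 0.5 and 8 under -0.5. Among the strongest, Mtor correlated with Rptor at 0.80 and with Eif4ebp2 at 0.77, Agap2 correlated with Eif4ebp2 at 0.89 and with Rps6kb1 at -0.71, and Eif4ebp2 correlated with Rps6kb1 at -0.83. These values share library, depth and scaling, and the 2 forebrain libraries of replicate 3 are among them.

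The wider pathway, 107 genes in 8 lists that include the 9 members, was compared in the same way. None of the 107 was called by genotype in forebrain, midbrain, hindbrain or the summed regions, beside 0%, 0.00543%, 0% and 0.00451% of all genes. The unadjusted p (edgeR) was under 0.05 for 11, 4, 3 and 1 of the 107 in that order. Over all genes it was under 0.05 for 1002 of 18467, 1135 of 18400, 981 of 19112 and 820 of 22191. The smallest unadjusted p of the lists was that of Pik3r2, which encodes a regulatory subunit of PI3K, lower by 0.57 in Fmr1CRE midbrain (unadjusted p = 0.000833, adjusted p = 0.528, edgeR). Against hindbrain, 42 of the 107 (39.3%) were higher and 19 (17.8%) lower in forebrain, beside 26.3% and 25.3% of all genes, and 42 were higher and 19 lower in midbrain, beside 25.2% and 23.9%. Forebrain against midbrain gave 8 higher (7.48%) and 12 lower (11.2%), near the 8.79% and 9.42% of all genes. Without both mice of replicate 3, forebrain against hindbrain gave 32 higher and 17 lower of the 107, beside 20.4% and 18.6% of all genes, and forebrain against midbrain 5 and 6, beside 4.4% and 6.73%. The median log2 difference of the 107 was 0.10 for forebrain against hindbrain, beside -0.01 over all genes.

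By list, PI3K subunits, phosphatases and the PIKE family had 12 of 21 higher and 3 lower in forebrain than in hindbrain, 57.1% and 14.3% where all genes gave 26.3% and 25.3%. Inpp5d, a lipid phosphatase gene known from microglia, was higher by 2.03 (adjusted p = 5.076e-05, edgeR), or 4.09-fold. The 10 microglial markers summed to 434 to 579 CPM in forebrain and 229.6 to 278 in hindbrain, with none at 0. The part of cell composition in the Inpp5d difference was not tested. Inpp4b, another lipid phosphatase gene, was lower by 1.27 on the log2 scale (log2 difference -1.27, adjusted p = 0.0001211). Of the Akt kinases and PDK1, 3 of 4 were higher, with Akt2 at 0.78. The mTOR complex subunits had 3 of 11 higher (27.3%, near the share of all genes) and 1 lower, the latter being Prr5l, an mTORC2-associated gene, at -1.84 (adjusted p = 1.502e-05). Rictor, the defining subunit of mTORC2, differed by -0.06 and was not called. It was called for forebrain against midbrain (log2 difference -0.34, adjusted p = 0.00366, edgeR) and for midbrain against hindbrain (0.27, adjusted p = 0.004). The former was -0.34 without both mice of replicate 3 (adjusted p = 0.031, edgeR). For forebrain against hindbrain, only Tsc1 and Tsc2 of 5 in the TSC complex and Rheb list were higher, and Rheb differed by -0.08 without a call. Amino acid sensing genes were mixed, with 8 of 29 higher (27.6%, again near that share) and 10 lower, among them the Rag GTPase gene Rragd at 1.31 and the arginine sensor gene Castor1 at -0.69. Energy and stress inputs had 3 of 9 higher and 2 lower, with the AMPK catalytic subunit genes Prkaa2 at 1.14 and Prkaa1 at -0.47. In the S6 kinase arm 2 of 8 were higher (25%, near it too) and 1 lower, the latter being Rps6, the S6 protein itself, at -0.29. The cap-binding complex and its regulators had 9 of 20 higher and 2 lower, with Cyfip2, which encodes an FMRP-interacting protein, at 1.09 and Paip2, a repressor of poly(A)-binding protein, at -0.66. The median log2 difference was 0.48 for the PI3K list, 0.62 for the Akt list, 0.16 for the cap-binding list and 0.13 or less for the other 5. Without both mice of replicate 3 the higher and lower counts were 10 and 3 for the PI3K list, 3 and 0 for the Akt list, 1 and 1 for the mTOR complexes, 1 and 0 for the TSC list, 6 and 9 for amino acid sensing, 3 and 3 for energy and stress inputs, 0 and 0 for the S6 kinase arm and 8 and 1 for the cap-binding list. Of the genes named here as called between forebrain and hindbrain, Tsc2 and Rps6 (adjusted p = 0.119, edgeR) were no longer called.

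**Figure D5:**
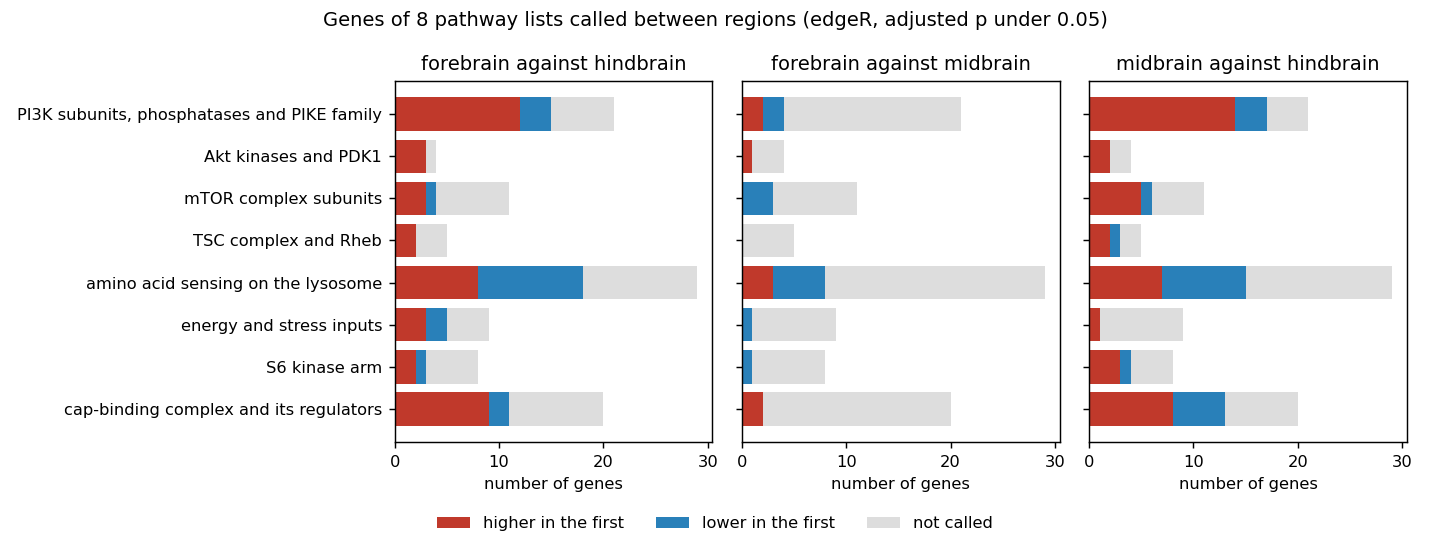
Number of genes of each of the 8 pathway lists called higher, called lower or not called in each region comparison (edgeR, adjusted p under 0.05, 107 genes). Most lists have more genes higher than lower against hindbrain, while amino acid sensing is split 8 to 10 for forebrain against hindbrain.

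Paralogs of the members did not all follow them. Agap1 and Agap3, the other PIKE family genes here, were higher in forebrain than in hindbrain by 0.92 and 0.65, far less than the 3.74 of Agap2. Among PI3K catalytic subunits, Pik3cd was higher by 0.98 and Pik3cg by 1.29, while Pik3ca differed by -0.13 without a call. Eif4e2 differed by 0.08 without a call and Eif4e3 was higher by 0.40. Rps6kb2 differed by 0.37 (SE 0.26) without a call. The called paralogs were still called without both mice of replicate 3, with Agap1 at 1.10, Agap3 at 0.47, Pik3cd at 0.91, Pik3cg at 1.55, Eif4e3 at 0.44 and Eif4ebp1 at 1.17 (edgeR).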

How the data were processed

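Poly(A) RNA-seq libraries of 18 brain samples, from 3 regions of 3 Fmr1CRE and 3 wild-type mice, were sequenced by the authors as single-end reads of 50 bases on a NextSeq 500. According to the study's methods and the submitters' processing notes, reads were quantified with salmon 0.14.0 in bcbio_nextgen against mm10 and imported for DESeq2 1.30.1, and the libraries were sequenced in 2 pools whose membership is not given in the sources used here. The authors deposited a table of whole-number counts per gene and, per library, a table with the effective length, TPM and estimated counts of each transcript, which are expected counts. Of the transcript tables, 2 of 18 carry the name of their own record and 16 another, so they were only pooled. Symbols and GRCm38 coordinates came from GENCODE M21, which is of the same build, and 53431 of 53468 IDs had a symbol. The other 37 held 0.0151% of counts. No column was left unused (0 columns).

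Counts were tested with edgeR 4.0.16 (limma 3.58.1, R 4.3.3), using filterByExpr, TMM factors, the quasi-likelihood F-test and Benjamini-Hochberg adjustment over all genes tested, with calls at an adjusted p under 0.05. Genotype was tested within each region and in the regions summed per mouse. Regions and the difference of genotype effects between regions were tested with mouse as a block. CPM uses the TMM scale of all 18 libraries, log2 CPM a prior count of 2, and intervals are 95%. Exact permutation tests were two-sided, over 3 mice against 3 or over signs of 6 within-mouse differences. Python 3.11.15, numpy 2.4.6, pandas 2.3.3, SciPy 1.17.1 and matplotlib 3.10.9 did the rest. The scripts were tested on simulated data. Alternatives were DESeq2 1.42.0, its size factors, total counts alone, no filter, at least 10 counts in every library, the replicate number as a block, 1 fit of 18 libraries, each genotype alone, and leaving out each replicate or both of replicate 3. The correlation check of the forebrain libraries used genes with a range of at least 2 on the log2 scale in each region and r over 0.9 between midbrain and hindbrain. That check, the read-weighted length, the list counts without both mice of replicate 3, the marker sums and the values within groups were chosen after the data were seen.

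The members and lists were chosen with earlier results of these data known. Named genes are the 9 members, Fmr1, fixed paralogs and partners, the 2 most positive and 2 most negative called genes of each list and region comparison, called list genes and the 3 smallest unadjusted p per genotype comparison, and the 3 non-members most correlated with each of the 3 members of widest range. A subset of these is printed. The labels name 3 biological replicates per genotype, so p-values of the genotype tests measure spread between mice. Region tests have mouse as a block, and their p-values measure how the differences within a mouse vary from mouse to mouse. Same-numbered mice of the 2 genotypes did not deviate together (correlations of -0.15 to 0.08), and differently numbered mice gave -0.12 to 0.14. With 3 mice per group these values cannot exclude a pairing. The number was not used as a pairing in the main genotype fits.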

Additional observations from a re-analysis of the deposited data

How the results depend on the processing

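No member was called by genotype under any alternative, and the 6, 2 and 8 region calls of the members kept their direction in every fit that was run. Counts of called genes depended more on the setting. For genotype they were 0 in forebrain, 1 in midbrain, 0 in hindbrain and 1 in the summed regions, and DESeq2 gave 31, 62, 60 and 29. Without a filter on low counts there were 11 in midbrain, 11 in hindbrain and 4 in the summed regions, and with at least 10 counts in every library 0 in midbrain. A single fit of the 18 libraries gave 1 in forebrain, 0 in midbrain and 1 in hindbrain. Leaving out 1 library or mouse, or both of replicate 3, gave 0 to 4 in midbrain, 0 to 5 in hindbrain and 0 throughout in the summed regions, with the 4 lacking Fmr1CRE replicate 3 and the 5 lacking wild-type replicate 3. The difference between regions, with 0 calls, had 77 by DESeq2, 2 without the filter, and 0 to 83 with mice left out, the 83 being without both mice of replicate 3. For regions, the Fmr1CRE mice alone gave 5933 calls for forebrain against hindbrain, 182 for forebrain against midbrain and 4565 for midbrain against hindbrain, where all mice gave 9975, 3518 and 9484. Forebrain against midbrain had 1261 calls in wild-type mice alone and 2165 to 2944 with mice left out, the fewest without both of replicate 3. Fits of 1 genotype have 3 mice. The cause of the other shifts was not tested.

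With the replicate block, the summed regions had 0 calls instead of 1, and a pairing of the genotypes by number was not shown. Mtor in forebrain went from 0.037 to -0.0072 with the replicate block and Rps6kb1 in hindbrain from 0.0066 to -0.0033. All changes of sign were of differences not called in either fit, on the log2 scale. Total counts alone gave Tsc1 0.020 in midbrain, Rps6kb1 -0.0072 in hindbrain, Pik3cb -0.10 for forebrain against hindbrain, and Tsc1 -0.028 and Rps6kb1 -0.051 for forebrain against midbrain. Pik3cb was -0.0071 for forebrain against hindbrain with at least 10 counts in every library and -0.020 in forebrain by genotype in 1 fit of 18 libraries, and Rps6kb1 was -0.012 for forebrain against midbrain without the filter. In Fmr1CRE mice alone, Pik3cb was -0.097 for forebrain against hindbrain, and Tsc2 0.043 and Rps6kb1 -0.10 for forebrain against midbrain.

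Leaving out 1 library or mouse, or both of replicate 3, gave these ranges where a sign changed. By genotype in forebrain they were Mtor -0.12 to 0.27, Rptor -0.13 to 0.27, Pik3cb -0.11 to 0.080, Agap2 -0.43 to 0.040, Eif4e -0.11 to 0.015 and Eif4ebp2 -0.33 to 0.0063. In midbrain they were Tsc1 -0.11 to 0.041, Tsc2 -0.18 to 0.086, Agap2 -0.44 to 0.017, Eif4e -0.030 to 0.11, Eif4ebp2 -0.43 to 0.013 and Rps6kb1 -0.075 to 0.29, and in hindbrain Mtor -0.030 to 0.19, Tsc2 -0.15 to 0.73, Eif4e -0.091 to 0.020 and Rps6kb1 -0.11 to 0.11. The summed regions gave Mtor -0.21 to 0.090, Rptor -0.051 to 0.17, Tsc1 -0.058 to 0.018, Agap2 -0.32 to 0.027, Eif4e -0.063 to 0.016, Eif4ebp2 -0.17 to 0.10 and Rps6kb1 -0.10 to 0.046. For forebrain against hindbrain the range was Pik3cb -0.021 to 0.075, and for forebrain against midbrain the ranges were Tsc1 -0.0072 to 0.065, Eif4ebp2 -0.18 to 0.048 and Rps6kb1 -0.032 to 0.081.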
